A study of Mus musculus with 12 samples.

Results

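The colony stimulating factors and the receptors that bind them were examined in mouse abdominal aorta. The set holds 10 genes chosen by name, of 55092 features in the table: the ligands Csf1, Il34, Csf2 and Csf3, the receptor tyrosine kinases Csf1r, Flt3 and Kit, and the cytokine receptor chains Csf2ra, Csf2rb and Csf3r. The rule for membership is the gene's name and uses no measured value, though the set was proposed with earlier results of these data known. A test across features was run on the 14676 features with at least 1 FPKM (fragments divided by gene length and library size) in at least 3 of 12 libraries, and 8 of the 10 genes were among them.

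Colony stimulating factors are secreted proteins that keep myeloid cells alive and drive their maturation. CSF1 (M-CSF) and IL-34 both bind CSF1R on monocytes and macrophages, CSF2 (GM-CSF) binds a receptor made of CSF2RA and the shared β chain CSF2RB, and CSF3 (G-CSF) binds CSF3R on neutrophils and their precursors. FLT3 and KIT belong to the same kinase family as CSF1R and are best known from blood progenitors, with FLT3 also on dendritic cells and KIT on mast cells.

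RNA-Seq was performed on abdominal aortas of male mice, with 4 groups of 3 mice and 1 library per mouse. CCN2 fl/fl mice, which carry floxed CCN2 alleles without Cre, were infused with saline in the CFS group and with Ang II in the CFA group. In CCN2 SMCΔ mice Myh11-Cre-ERT2 deletes CCN2 in smooth muscle cells (SMC), and these mice made up the CSS (saline) and CSA (Ang II) groups. Mice of both genotypes were given 5 doses of tamoxifen from 8 weeks of age, followed by a washout of 2 weeks. Mini-osmotic pumps then delivered saline or Ang II, the latter at 500 ng/kg/min, for 7 days. The Cre is restricted to cells that express Myh11, so CCN2 made by other cells of the wall was not targeted.

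The targeted gene was checked first. Ccn2 was at 710 (mouse 68), 1108 and 480 FPKM in CFS, at 436, 640 and 587 in CSS, at 1013, 1105 and 564 in CFA and at 255, 331 and 399 in CSA. The saline groups overlapped, and every CSA mouse lay below every CFA mouse (log2 fold change -1.41 with an SE of 0.34, limma adjusted p = 0.00622 by Benjamini-Hochberg). Ccn2 shares 23.2% of its exonic bases with the annotated gene Gm15270, and the labels do not give how much of the transcript the deletion removes. Recovered fragments numbered 14558580 to 23107811 per mouse. CSA mouse 03 stood apart from its group, at root mean square log2 distances of 1.21 and 1.1994 from mice 01 and 02, which lay 0.505 apart. CFA mouse 72 lay 0.712 and 0.743 from its group, where pairs of CFS mice lay 0.688 to 0.739 apart, and was the highest CFA mouse for all 6 receptors. CSA mouse 03 was the lowest CSA mouse for all 6 receptors, and for 9 of the 10 genes.

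Between CSA and CFA, 5 of the 10 genes were upregulated and 0 were downregulated by limma, where a call needed both an adjusted p under 0.05 and a log2 fold change of more than 1.5 in either direction. Over all tested features the same rule called 17.2%, with 8.95% upregulated and 8.27% downregulated. All 5 were receptors: Csf1r, Flt3, Csf2ra, Csf2rb and Csf3r. Flt3 reached 1 FPKM in the CSA libraries alone, so it entered the test through the group in which it was high, and the other 4 did not depend on that group to enter. The sixth receptor, Kit, moved in the opposite direction, with every CSA mouse below every CFA mouse. With the adjusted p alone 6 genes were higher and 1 lower, beside 19.5% and 21.2% of all features. Of the 8 tested genes, 5 were higher in all CSA mice than in all CFA mice and 1 was lower, beside 23.4% and 25.1% of all features. The 2 genes outside the test, Csf2 and Csf3, were also higher in all CSA mice. In bulk tissue, fewer cells of a type and less RNA per cell cannot be told apart, and the same holds for more.

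**Figure D1:**
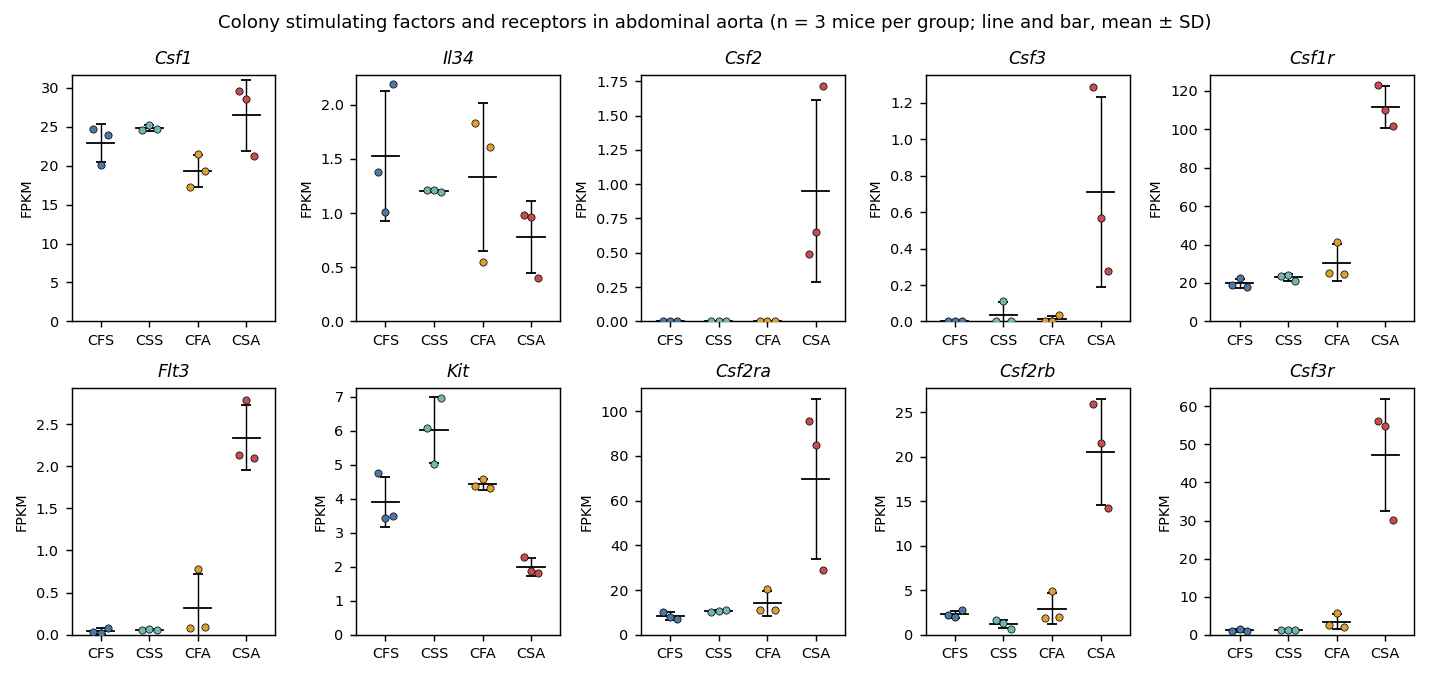
FPKM (linear axis from 0) of the 10 genes in each mouse of the 4 groups, with the group mean as a line and the SD as a bar (n = 3). The points of Csf1r, Flt3, Csf2ra, Csf2rb and Csf3r in CSA lie above those of every other group, those of Kit lie below, and those of Csf1 overlap with CFA.

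By the GENCODE M21 annotation of GRCm38 all 10 genes are protein-coding. The ligand genes are Csf1 at chr3:107741048-107760469 on the minus strand, Il34 at chr8:110741829-110805924 on the minus strand, Csf2 at chr11:54247271-54249667 on the minus strand and Csf3 at chr11:98701263-98703629 on the plus strand. Flt3 (chr5:147330741-147400489, minus strand) and Kit (chr5:75574916-75656722, plus strand) share a chromosome. The cytokine receptor chains are Csf2ra at chr19:61223957-61228429 on the minus strand, Csf2rb at chr15:78325752-78353847 on the plus strand and Csf3r at chr4:126024550-126044440 on the plus strand.

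Promoter windows, the 250 bases before the RefSeq start on GRCm38.p6, were found for 6 of the 10 genes (Csf1, Csf2, Csf2ra, Csf3r, Flt3 and Kit), and not for Csf1r, Csf2rb, Csf3 or Il34. The windows of the 6 genes were searched on both strands for GAGGAA, the core recognised by PU.1, the myeloid factor encoded by Spi1. The stretches of 30 bases around the matches are shown for Csf3r and Csf2ra, a pair of receptors that moved together, and for Kit, which moved against them, with GAGGAA in capitals.
Csf3r: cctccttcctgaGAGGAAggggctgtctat
Csf2ra: gtttcccaacctgcagatGAGGAAGAGGAA
Kit: ggagagtgctagGAGGAAgaggatccaggg

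The Csf3r stretch is at chr4:126024561-126024590 on the plus strand, positions -98 to -69 before the start, and all 30 of its bases lie in an exon of a GENCODE M21 transcript. The Csf2ra stretch is at chr19:61228421-61228450 on the minus strand, positions -32 to -3, and holds a pair of adjacent copies, with 9 of its 30 bases in an exon. Its first bases also hold a match to the C/EBP pattern TTNNGNAA, read on the opposite strand. The Kit stretch is at chr5:75574752-75574781 on the plus strand, positions -235 to -206 before the first of its annotated starts. The Csf1, Csf2 and Flt3 windows hold no GAGGAA, and the Csf2 window holds a match to TTNNGNAA at -145 to -138 on the opposite strand. Of all 32851 windows of this length, 23.3% hold GAGGAA and 36.8% hold TTNNGNAA, so a match is common, and it is given here as a description of the sequence.

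Csf1, the main growth factor of macrophages, was the most abundant ligand in all groups. It was at 24.7, 20.1 and 23.9 FPKM in CFS and at 24.6, 25.3 and 24.7 in CSS. It was at 17.2, 21.5 and 19.3 in CFA and at 29.6, 28.5 and 21.3 in CSA. CSA mice 01 and 02 lay above all CFA mice and CSA mouse 03 lay among them, so the groups overlapped. The means were 19.3 ± 2.11 (SD, n = 3) in CFA and 26.5 ± 4.54 in CSA (log2 fold change 0.44 with an SE of 0.15, limma adjusted p = 0.0344), a change that stayed under the fold limit. CFA mouse 72 was the highest and CSA mouse 03 the lowest of its group, so leaving out both had to enlarge the change. This pair was chosen after seeing the data. Without them it was 0.67 (adjusted p = 0.00108), and over all alternatives the adjusted p ran from 0.00108 to 0.141. Against CSS, whose mice carry the same deletion, the difference was 0.08 (adjusted p = 0.702).

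Il34, the second ligand of CSF1R, was at 1.38, 1.01 and 2.19 FPKM in CFS and at 1.21, 1.21 and 1.196 in CSS. It was at 1.83, 0.553 and 1.61 in CFA and at 0.981, 0.963 and 0.400 in CSA. Both groups infused with Ang II contained 1 low mouse, CFA mouse 72 and CSA mouse 03, and they overlapped. The log2 difference was -0.64 with an SE of 0.46 (limma adjusted p = 0.291). Without CFA mouse 72 it was -1.13, with an adjusted p = 0.0473, and without CSA mouse 03 it was -0.27, with an adjusted p = 0.65, the ends of the range over all alternatives. With both left out it was -0.76 (adjusted p = 0.0737). All CSA mice were below all CSS mice (-0.65, adjusted p = 0.266), without passing the test, and the difference was -0.29 without CSA mouse 03. Csf1 exceeded Il34 in every mouse, by a mean FPKM ratio of 16.3 ± 4.72 (SD, n = 3) in CFS, 20.6 ± 0.249 in CSS, 20.0 ± 16.3 in CFA and 37.7 ± 13.4 in CSA. The CFA mean was carried by mouse 72, at a ratio of 38.8, where mice 71 and 74 were at 9.43 and 11.9.

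Csf2, which encodes GM-CSF, was listed at 0 in all CFS, CSS and CFA mice and at 0.493, 0.648 and 1.71 FPKM in CSA mice 01, 02 and 03. These values stood for 8, 11 and 21 fragments. Set against the 3 fragments that a 0 allows in each CFA library, the CSA mean of 0.951 ± 0.664 (SD, n = 3) was at least 5.43-fold higher, and at least 4.95-fold higher than CSS. CSA mouse 03 held 21 of the 40 fragments of its group, and both bounds would be lower without it. The groups did not overlap, and the two-sided exact permutation test gave p = 0.1, the smallest that 3 against 3 mice allow. Csf2 shares 12% of its exonic bases with the annotated gene Gm12223. Its neighbour Il3, which lies 15635 bases away on chromosome 11 and encodes another ligand of the β chain family, was listed at 0 in all mice of CSS, CFA and CSA.

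Csf3, which encodes G-CSF, was listed at 0 in every CFS mouse, at 0.115 FPKM in 1 CSS mouse and at 0.0334 in 1 CFA mouse, the latter a single fragment. In CSA mice 01, 02 and 03 it was at 1.29, 0.567 and 0.277 FPKM, or 37, 17 and 6 fragments. All CSA mice were above all mice of the other groups (exact permutation p = 0.1 against CFA, two-sided), and the CSA mean of 0.711 ± 0.521 (SD, n = 3) was at least 6.07-fold above the limit that 0 allows in CFS. CSA mouse 01 held 37 of the 60 fragments of its group, and the bound would be lower without it. Csf2 was highest and Csf3 lowest in CSA mouse 03. Both genes missed the filter on low values because only 1 library of each reached 1 FPKM. No fitted fold change is given for them, since with a group at or near 0 it depends on the pseudocount.

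Among the receptor tyrosine kinases, Csf1r, the receptor for CSF1 and IL-34, was the most abundant. It was at 19.2, 22.4 and 18.0 FPKM in CFS and at 23.4, 24.4 and 20.9 in CSS. It was at 25.3, 41.6 and 24.5 in CFA and at 123, 110.1 and 102 in CSA. The CSA mice were close together and far above all others, and CFA mouse 72 stood above its group. The mean was 30.5 ± 9.63 (SD, n = 3) in CFA and 112 ± 10.9 in CSA, a 3.66-fold ratio (log2 fold change 1.91 with an SE of 0.19, limma adjusted p = 2.33e-05). Without CFA mouse 72 and CSA mouse 03, the highest and the lowest of their groups, the change was necessarily larger, at 2.22. Csf1r lies on chromosome 18 and shares 15.1% of its exonic bases with Hmgxb3, and the library preparation as described has no step that marks the strand.

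The receptor changed more than its ligand. The ratio of Csf1r to Csf1 within a mouse was 0.880 ± 0.203 (SD, n = 3) in CFS, 0.923 ± 0.0648 in CSS, 1.56 ± 0.342 in CFA and 4.27 ± 0.464 in CSA. CSA mice ranged from 3.87 to 4.78, above all other mice, which reached at most 1.94.

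Csf1r changed less than most of the macrophage markers. Its ratio to Adgre1, which encodes the macrophage surface protein F4/80, was 3.37 ± 0.425 (SD, n = 3) in CFS, 3.30 ± 0.242 in CSS, 3.16 ± 0.257 in CFA and 1.55 ± 0.136 in CSA. Its ratio to Cd68, a lysosomal macrophage marker, was 2.46 ± 0.0996 in CFS, 2.74 ± 0.194 in CSS, 2.41 ± 0.642 in CFA and 1.07 ± 0.0695 in CSA. In both ratios every CSA mouse lay below every mouse of the other groups. No test was run on the ratios. Of the 15 macrophage and monocyte markers, 12 had a larger log2 fold change than Csf1r in CSA against CFA.

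**Figure D2:**
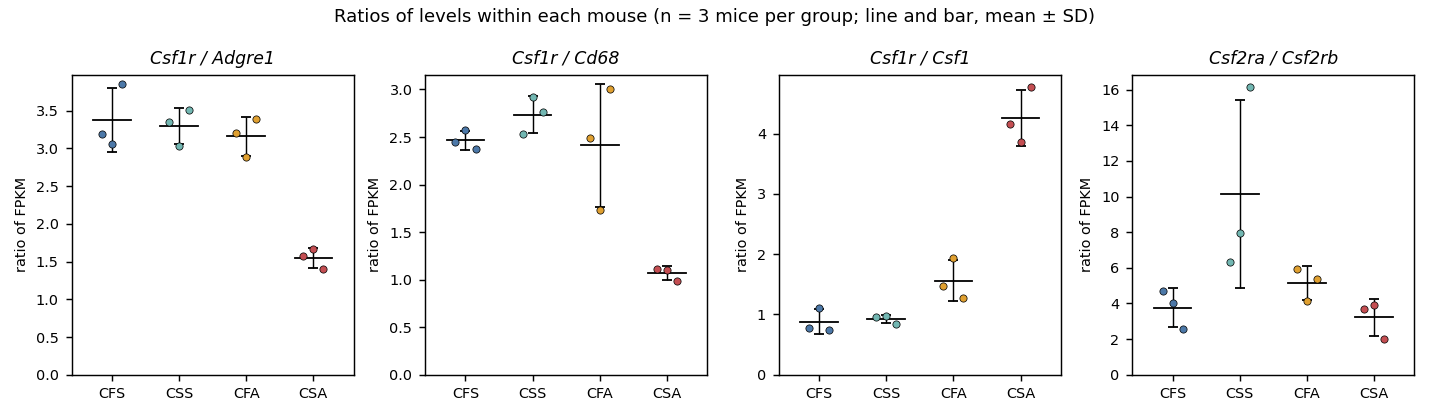
Ratio of 2 genes' FPKM within each mouse (linear axis from 0), by group, with the mean as a line and the SD as a bar (n = 3). The CSA mice lie lowest for Csf1r to Adgre1 (1.40 to 1.67) and Csf1r to Cd68 (0.989 to 1.11) and highest for Csf1r to Csf1 (3.87 to 4.78), while Csf2ra to Csf2rb overlaps between CSA and CFS.

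Flt3, the receptor for FLT3 ligand on progenitors and dendritic cells, was close to the limit of detection in saline. It was at 0.0350, 0.0173 and 0.0845 FPKM in CFS (15 fragments in all) and at 0.0610, 0.0699 and 0.0521 in CSS (22 fragments). It was at 0.0743, 0.786 and 0.0917 in CFA and at 2.14, 2.79 and 2.09 in CSA (831 fragments). CFA mouse 72 held 103 of the 125 fragments of its group, and the CSA mice lay above it. The mean was 0.317 ± 0.406 (SD, n = 3) in CFA and 2.34 ± 0.388 in CSA (log2 fold change 2.97 with an SE of 0.62, limma adjusted p = 0.00276, on the log2(FPKM + 0.1) scale), and without CFA mouse 72 the change was 3.73. With a pseudocount of 1 the change was 1.38, below the fold limit. Flt3l, which encodes its ligand, was lower in all CSA mice (3.33, 2.61 and 2.24 FPKM) than in all CFA mice (4.45, 3.99 and 7.65), with a log2 difference of -0.91 (adjusted p = 0.0262) that stayed under the fold limit. Leaving out CFA mouse 74 gave an adjusted p of 0.105, and leaving out CSA mouse 02 or 03 gave 0.0612 or 0.0635. Scaling to totals gave 0.0538, and a fit of only the 2 groups compared gave 0.0635. Flt3l shares 22.1% of its exonic bases with Gm45713.

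Kit, the receptor for stem cell factor, was at 4.75, 3.44 and 3.49 FPKM in CFS and at 6.09, 5.01 and 6.96 in CSS. It was at 4.36, 4.60 and 4.31 in CFA and at 2.29, 1.89 and 1.81 in CSA. The highest CSA mouse lay below the lowest mouse of the other groups. The mean was 4.42 ± 0.152 (SD, n = 3) in CFA and 1.995 ± 0.257 in CSA, a ratio of 0.451 (log2 fold change -1.12 with an SE of 0.17, limma adjusted p = 0.000372), under the fold limit. Leaving out CFA mouse 72 and CSA mouse 03, the highest and the lowest of their groups, gave a smaller change, -1.03 (adjusted p = 0.00254). Against CSS Kit was downregulated, with a log2 fold change of -1.54 (adjusted p = 2.94e-05). That value lies near the limit: it was -1.43 without CSS mouse 56 and -1.48 without CSA mouse 03, so the call was lost, while the adjusted p ran from 2.77e-05 to 0.00113 over all alternatives.

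Kitl, which encodes stem cell factor, was lower as well. It was at 3.47, 3.27 and 5.54 FPKM in CSA and at 9.30, 9.56 and 10.7 in CFA, with no overlap (log2 fold change -1.28 with an SE of 0.21, limma adjusted p = 0.000572), also under the fold limit. Without CSA mouse 03 the change was -1.52 (adjusted p = 3.79e-05), past the limit. The ratio of Kitl to Kit was 2.23 ± 0.218 (SD, n = 3) in CFA and 2.10 ± 0.839 in CSA, with overlap. Mast cells, which carry KIT, were followed by 9 markers, of which 5 were tested and 1 was called, Hdc, which encodes the histamine-forming enzyme and is also found in other myeloid cells, at 3.72 (limma adjusted p = 2.14e-05). Hdc reached 1 FPKM in CSA alone and therefore had to be high there. The summed mast cell markers ranged from 24.4 to 39.9 FPKM in CSA and from 7.46 to 42.2 in CFA, with no marker at 0 in every mouse. The other mast cell genes with the largest values, Cma1 and Mcpt4, were at 0.73 and -0.46 (limma adjusted p = 0.44 and 0.619). Of the 7 endothelial markers, 3 fell (Vwf at -2.36, Tek at -1.89 and Pecam1 at -1.84) and 1 rose, and their sum ranged from 120 to 150 FPKM in CSA and from 201 to 468 in CFA. In saline the sum was 105 to 425 in CFS, which takes in the CSA range, and 317 to 447 in CSS. The part of these cells in the Kit result was not tested.

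Csf2ra, the GM-CSF-binding chain, had the largest SD in FPKM within CSA, while Csf2 and Csf3 varied more relative to their means. It was at 10.2, 8.04 and 6.99 FPKM in CFS and at 10.2, 10.5 and 11.1 in CSS. It was at 10.9, 20.5 and 10.97 in CFA and at 95.5, 84.9 and 28.9 in CSA. CSA mouse 03 was far below CSA mice 01 and 02 and nearest to CFA mouse 72, and the groups did not overlap. The mean was 14.1 ± 5.52 (SD, n = 3) in CFA and 69.8 ± 35.8 in CSA, a 4.94-fold ratio (log2 fold change 2.18 with an SE of 0.40, limma adjusted p = 0.0013). Without both mice, the lowest of CSA and the highest of CFA, the change was necessarily larger, at 3.03.

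Csf2rb, the signalling β chain shared by the receptors for GM-CSF, IL-3 and IL-5, was at 2.18, 1.98 and 2.75 FPKM in CFS and at 1.62, 1.33 and 0.688 in CSS. It was at 1.83, 4.97 and 2.04 in CFA and at 25.9, 21.6 and 14.2 in CSA. The lowest CSA mouse lay well above CFA mouse 72. The mean was 2.95 ± 1.75 (SD, n = 3) in CFA and 20.6 ± 5.92 in CSA, a 6.98-fold ratio (log2 fold change 2.86 with an SE of 0.40, limma adjusted p = 0.000199). Without CFA mouse 72 and CSA mouse 03, the highest and the lowest of their groups, the change was necessarily larger, at 3.55. The ratio of Csf2ra to Csf2rb was 5.15 ± 0.936 in CFA and 3.22 ± 1.04 in CSA, and every CSA mouse was below every CFA mouse.

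Csf2rb has a near-identical neighbour, Csf2rb2, the IL-3-specific β chain of the mouse, on the opposite strand 20030 bases away on chromosome 15. Their longest transcript alignment covers 3108 bases at 95.1% identity, so fragments could be divided between them and each value alone is uncertain. Csf2rb2 was at 20.4, 15.7 and 12.6 FPKM in CSA and at 1.43, 3.76 and 2.09 in CFA, and was upregulated (log2 fold change 2.77, limma adjusted p = 0.000316). The ratio of Csf2rb to Csf2rb2 was 1.19 ± 0.187 (SD, n = 3) in CFA and 1.26 ± 0.124 in CSA. Il3ra, the IL-3-binding chain, was at 18.7, 17.2 and 4.80 in CSA and at 6.41, 7.53 and 6.31 in CFA, and CSA mouse 03 lay below all CFA mice (0.78, adjusted p = 0.185). Without that mouse the difference was 1.40 (adjusted p = 0.000781), under the fold limit. Il5ra stayed under 1 FPKM in every mouse and was higher in all CSA mice (0.145 to 0.694) than in all CFA mice (0.0396 to 0.119), outside the test. Il5 was at 0.0613 FPKM or less in all CSA mice.

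Csf3r, the G-CSF receptor of the neutrophil lineage, had the largest log2 fold change of the tested genes. It was at 0.959, 1.496 and 0.996 FPKM in CFS and at 1.19, 1.14 and 1.21 in CSS. It was at 2.60, 5.64 and 2.13 in CFA and at 56.3, 54.97 and 30.2 in CSA. CSA mouse 03 was the lowest of its group and lay above CFA mouse 72 by a wide margin. The mean was 3.46 ± 1.91 (SD, n = 3) in CFA and 47.2 ± 14.7 in CSA (log2 fold change 3.80 with an SE of 0.35, limma adjusted p = 1.25e-05). Without both mice, the lowest of CSA and the highest of CFA, the log2 fold change was necessarily larger, at 4.51. Of the 12 tested neutrophil markers, 9 had a larger log2 fold change than Csf3r, a count partly set by the filter, since 5 of the 12 reached 1 FPKM in CSA alone.

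**Figure D3:**
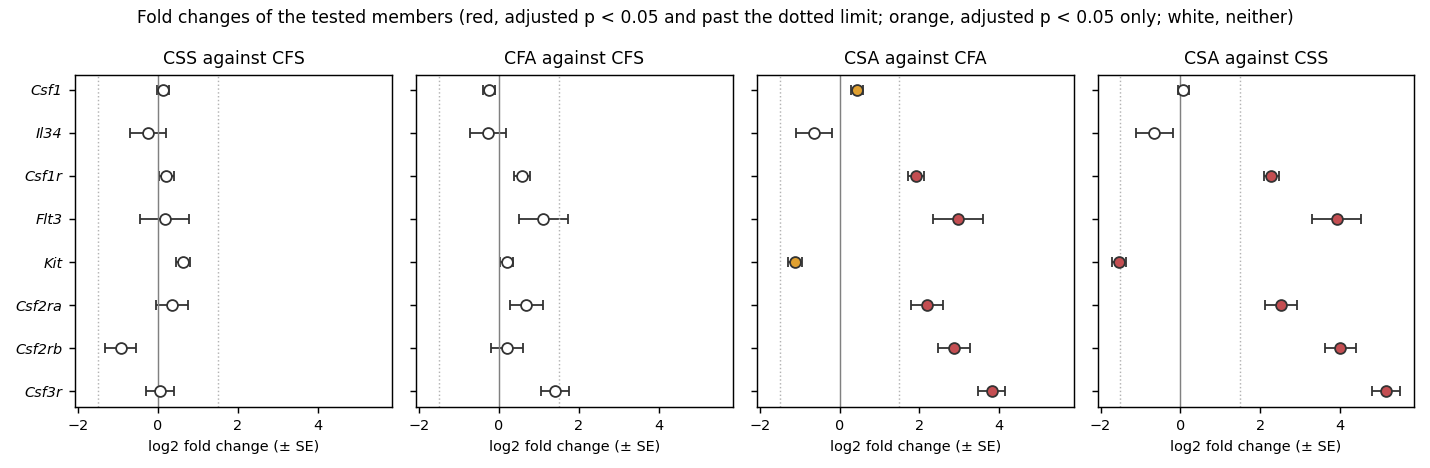
Log2 fold change (± SE, limma on log2(FPKM + 0.1), n = 3 mice per group) of the 8 tested genes in 4 comparisons, with dotted lines at the fold limit of 1.5 on both sides of 0. Red points passed the adjusted p and the fold limit, orange points the adjusted p alone, and white points neither. Points past the limit appear only in the comparisons with CSA, which share the CSA mice.

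The order of the levels changed with it. In CFS the genes ran from Csf1 (22.9 ± 2.46 FPKM, SD, n = 3) and Csf1r (19.8 ± 2.30), which did not differ beyond their spread, through Csf2ra (8.40 ± 1.63), Kit (3.90 ± 0.739), Csf2rb (2.30 ± 0.398), Il34 (1.53 ± 0.604) and Csf3r (1.15 ± 0.2998) to Flt3 (0.0456 ± 0.0348). In CSA Csf1r led, followed by Csf2ra, Csf3r, Csf1 and Csf2rb, and then by Flt3, Kit, Csf2, Il34 and Csf3 at 2.34 FPKM or less. In CFS the values of Il34 overlapped those of Csf2rb and of Csf3r. In CSA the values of Csf2ra overlapped those of Csf3r and of Csf1, and overlap was also found between Csf1 and Csf2rb, between Flt3 and Kit, and among Csf2, Il34 and Csf3.

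Myeloid markers were higher in CSA, as were 5 of the 6 receptors, all but Kit. Of the 15 macrophage and monocyte markers 12 rose and 0 fell past both limits in CSA against CFA, and by the adjusted p alone 13 were higher and 2 lower, with a median log2 fold change of 2.93 beside -0.04 over all tested features. Their summed level ranged from 317 to 374 FPKM in CFS, from 330.1 to 398 in CSS, from 372 to 785 in CFA and from 2550.0 to 2855 in CSA, and no marker was at 0 in every mouse. CFA mouse 72 was the highest CFA mouse for 13 of the 15 markers, and for all 6 receptors. CSA mouse 03, the lowest CSA mouse for all 6 receptors, was the lowest for 5 of the 15 markers. Ly6c2 of inflammatory monocytes (6.6, adjusted p = 1.36e-06), Fcgr1, a receptor for IgG (5.24, adjusted p = 1.33e-05), and Ccr2, the monocyte chemokine receptor (4.10, adjusted p = 2.08e-05), changed most by limma. Ly6c2 averaged 0.354, 0.653 and 0.285 FPKM in CFS, CSS and CFA, so it needed CSA libraries to enter the test and had to be high there. The part of these markers in the result for Csf1r and Csf2ra was not tested.

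All 12 tested neutrophil markers of 14 rose, but 5 of them reached 1 FPKM in CSA alone and therefore had to be high there. The summed level ranged from 8.07 to 20.3 FPKM in CFS, from 7.17 to 8.65 in CSS, from 12.2 to 31.2 in CFA and from 542 to 638 in CSA. Ngp, a granule protein of neutrophils, was listed at 0 in CFA and averaged 9.35 ± 2.74 FPKM (SD, n = 3) in CSA. The log2 fold changes of Il1r2, the IL-1 decoy receptor, and S100a8, an abundant neutrophil calcium-binding protein, were 6.02 and 5.27 (limma adjusted p = 0.000125 and 4.62e-06). Il1r2 averaged 0.369, 0.204 and 0.921 ± 1.3 FPKM in CFS, CSS and CFA, so it too needed CSA libraries to enter the test. Mpo, a defining enzyme of the lineage, was listed at 0 in every CFS, CSS and CFA mouse. CSA mouse 03, lowest for Csf3r, had the highest neutrophil sum of its group. The part of these cells in the Csf3r result was not tested.

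**Figure D4:**
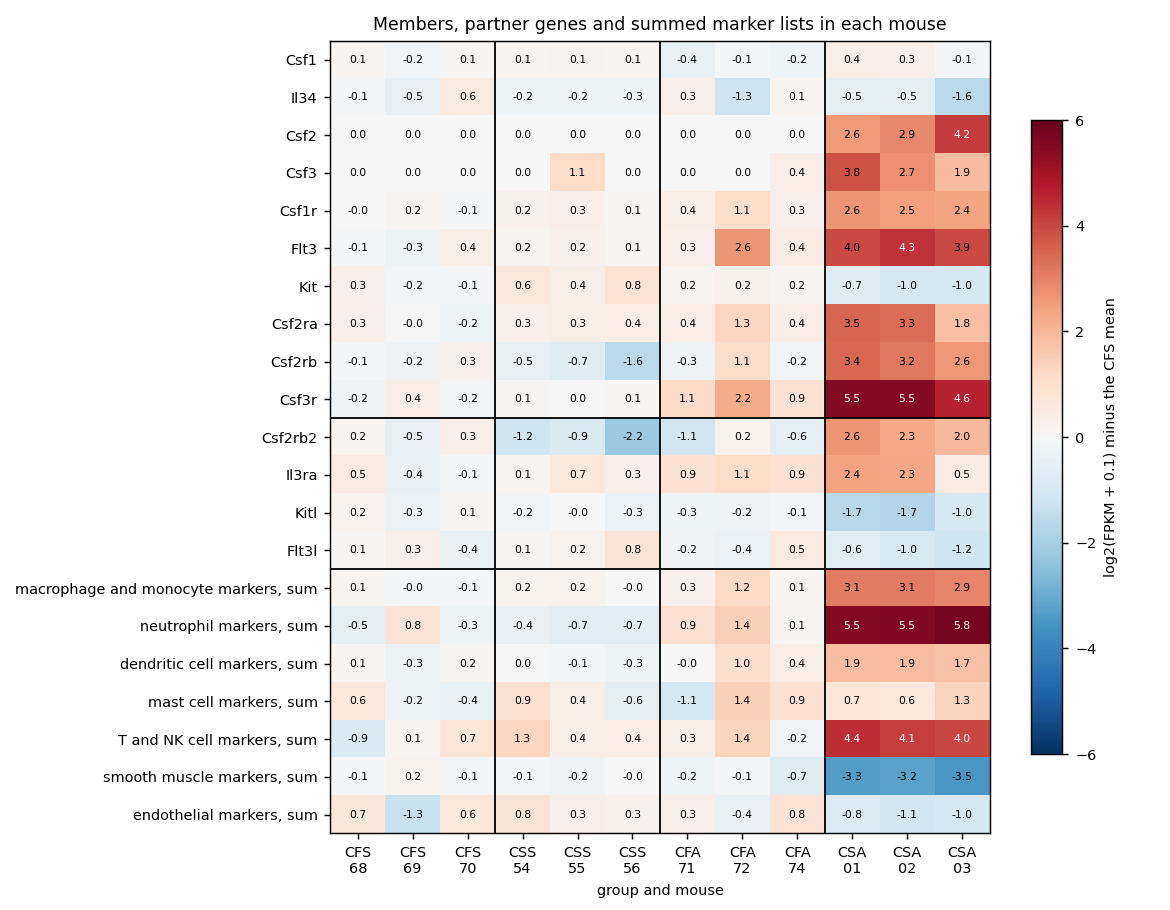
Log2(FPKM + 0.1) minus the CFS mean in each of the 12 mice for the 10 genes (top block), 4 partner genes (middle block) and the summed FPKM of 7 marker lists (bottom block), with the value printed in each cell. CFA mouse 72 stands above its group for most receptors and myeloid lists, and CSA mouse 03 is lower than CSA mice 01 and 02 for 9 of the 10 genes, all but Csf2, and for Il3ra.

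Other cell types were followed in the same way. Of 10 dendritic cell markers 9 were tested, and 4 rose and 0 fell past both limits. By the adjusted p alone 4 were higher and 1 lower, and the median log2 fold change was 0.57. The summed level was 14.7 to 29.7 FPKM in CFA and 49.9 to 54.6 in CSA. The largest changes were those of Ccr7, Itgax and Itgae, at log2 fold changes of 4.32, 3.66 and 2.5 (limma adjusted p = 0.00123, 0.000116 and 0.00227). Of these, Itgae reached 1 FPKM in CSA alone. Ccr7 averaged 0.297, 0.135 and 0.570 ± 0.682 FPKM (SD, n = 3) in CFS, CSS and CFA, and Itgax 0.465, 0.322 and 1.503 ± 1.285. Both therefore also needed CSA libraries to enter the test. Of 10 T and NK cell markers 8 were tested and rose, 7 of which reached 1 FPKM in CSA alone, and Cd2, Cd4 and Cd3d changed by 4.01, 3.93 and 3.86 (adjusted p = 0.000511, 5.37e-05 and 0.0011). Of 7 B cell markers 3 were tested and 2 rose, Jchain of plasma cells by 5.61 and Cd79b of the B cell receptor by 2.43 (adjusted p = 0.000199 and 0.00162), while Cd79a was at 0.03 (adjusted p = 0.985). All 8 smooth muscle markers fell, with Myh11, the myosin heavy chain whose promoter drives the Cre, at 718 ± 19.8 FPKM (SD, n = 3) in CFA and 39.9 ± 5.86 in CSA (log2 fold change -4.175, limma adjusted p = 8.05e-08), and Cnn1 and Lmod1 at -3.795 and -3.52. Of 8 fibroblast markers 0 passed both limits, and 4 were higher and 2 lower by the adjusted p alone, among them Lum at 1.44, Pi16 at -1.17 and Dpt at -1.13. Of 7 adipocyte markers 3 fell, Cidea by a log2 value of -4.87, Lep of -3.41 and Plin1 of -2.88.

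Downstream of these receptors, JAK-STAT, Src-family and phosphatidylinositol 3-kinase signalling genes and their feedback inhibitors were counted. Between CSA and CFA, 10 of 24 such genes rose and 0 fell past both limits, beside 8.95% and 8.27% of all features. By the adjusted p alone 14 were higher and 3 lower, beside 19.5% and 21.2% of all features. The median log2 fold change was 0.69. Fgr, a Src-family kinase of myeloid cells, changed by 3.64 (limma adjusted p = 1.4e-05). Ptpn6, which encodes the phosphatase SHP-1, a brake on cytokine receptors, changed by 3.67 (adjusted p = 1.49e-06). Among 10 myeloid transcription factors 8 were tested and 5 rose, with Runx1 at 3.40, Spi1 at 3.28 and Irf8 at 2.99 (adjusted p = 9.89e-06, 1.39e-05 and 9.97e-05). Many of these genes are expressed by the blood cells whose markers rose, and the part of those cells was not tested.

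In saline, 0 of the 10 genes were called between CSS and CFS (limma, lowest adjusted p = 0.425), beside 0.0136% of all features. At an unadjusted p under 0.05 there were 2, Kit and Csf2rb, where 6.3% of all features passed. Kit was higher in every CSS mouse (log2 difference 0.62, unadjusted p = 0.00409), and Csf2rb was lower in every CSS mouse (-0.94, unadjusted p = 0.0384), with a difference of -0.60 when CSS mouse 56 was left out. The copy Csf2rb2 was also lower in every CSS mouse (-1.43, adjusted p = 0.475). Csf2ra was higher in every CSS mouse by 0.35. Counting tested genes, 2 were higher and 1 lower without overlap, beside 11.1% and 9.31% of all features.

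In CCN2 fl/fl mice, 0 of the 10 genes were called between CFA and CFS (limma, lowest adjusted p = 0.171), beside 0.0273% of all features. Csf3r (log2 difference 1.41, unadjusted p = 0.002) and Csf1r (0.58, unadjusted p = 0.0127) were under an unadjusted p of 0.05, as were 9.42% of all features. Csf3r, Csf1r and Csf2ra (0.69) were higher in all CFA mice than in all CFS mice, beside 9.44% of all features. Without CFA mouse 72 the differences were 1.0 for Csf3r, 0.33 for Csf1r and 0.39 for Csf2ra. Flt3 differed by 1.11 (adjusted p = 0.644), with CFA mouse 72 alone far above the CFS mice, and by 0.35 without that mouse.

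In CCN2 SMCΔ mice, 5 genes were upregulated and 1 downregulated between CSA and CSS, where 20.3% of all features were called, 10.9% upward and 9.36% downward. This comparison shares the CSA mice with that against CFA, and each has its own values. The log2 fold changes were 5.15 for Csf3r (limma adjusted p = 1.23e-06), 4.01 for Csf2rb (1.4e-05), 3.91 for Flt3 (0.000376), 2.53 for Csf2ra (0.00041) and 2.28 for Csf1r (5.14e-06). Kit was the downregulated gene. Flt3 reached 1 FPKM in the CSA libraries alone, so it entered the count through the group in which it had to be high.

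Whether the genotype difference depended on the treatment was tested as an interaction. It was called for 6 of the 8 tested genes, 5 upward and 1 downward, where 15.2% of all features were called, 7.89% upward and 7.31% downward. The genotype difference under Ang II exceeded that under saline by 3.80 for Csf2rb (SE 0.56, limma adjusted p = 0.000725), 3.75 for Csf3r (SE 0.49, adjusted p = 0.000379) and 1.70 for Csf1r (SE 0.27, adjusted p = 0.0012). For Kit it was lower by a log2 value of -1.74 (SE 0.24, adjusted p = 0.000507). For Flt3 (2.80, adjusted p = 0.036) and Csf2ra (1.83, adjusted p = 0.0355) the call was near its limit and was lost in 9 of 14 and 10 of 19 alternatives. Flt3 also entered the test through the CSA libraries alone and had to be high there. Csf1 and Il34 showed interactions of 0.32 and -0.38 (adjusted p = 0.296 and 0.705). For Csf1 mouse 03 was lowest in CSA and mouse 72 highest in CFA, so leaving them out had to raise the interaction. With CSA mouse 03 left out that of Csf1 was 0.47 (adjusted p = 0.0353), and with CFA mouse 72 left out as well it was 0.55 (adjusted p = 0.0165), both under the fold limit. That of Il34 was -0.02 with CSA mouse 03 left out, and -0.10, -0.88 and -0.18 when CFA mouse 71, 72 or 74 was dropped.

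The tested features most like each gene over the 12 mice were listed by Pearson's r of log2(FPKM + 0.1), as a description in which the 4 group means set most of the likeness. For Csf1r they were Selplg (0.997), Myo1f (0.997) and Adgre1 (0.997), and for Csf3r they were Pik3cd (0.994), Selplg (0.993) and Arhgap9 (0.993). Csf2ra was nearest to Mov10 (0.990), Dok3 (0.988) and Tcirg1 (0.988), and Csf2rb to Hdc (0.989), Cxcl14 (0.984) and Ctsb (0.981). For Flt3 they were Itgae (0.994), Gm45879 (0.991) and AA467197 (0.990). Kit was nearest to Prr15 (0.962), Fzd7 (0.959) and Hip1 (0.959), which were lower in CSA by log2 values of -2.21, -1.25 and -0.84 against CFA. The ligands had less similar neighbours, Mettl3 (0.917), Imp4 (0.906) and Cog8 (0.893) for Csf1 and A930012O16Rik (0.931), Aldh4a1 (0.904) and St6galnac2 (0.904) for Il34.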

How the data were processed

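RNA-Seq of 12 abdominal aortas was analysed from 1 table. The authors deposited FPKM per gene and mouse, and 0 columns were left unmapped. The submitters' processing notes name HISAT2 2.0.5, StringTie 1.3.3b, featureCounts 1.5.0-p3 and the build mm10. The annotation release is not given in the sources used here. GENCODE M21 gave a symbol for 54409 of the 55092 features and an exon length for 54495. With these lengths 98.0% to 98.5% of the deposited FPKM under 100 fragments were whole fragments within 0.05, and their sum was taken as depth: 17805951 to 20160044 fragments in CFS, 18870208 to 22805473 in CSS, 20909800 to 23107811 in CFA and 14558580 to 19132095 in CSA. The median log ratio was equal in all libraries, a scaling that the sources used here do not describe. A value of 0 allows up to 3 fragments, counting error only.

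Log2(FPKM + 0.1) was fitted with limma 3.58.1 in R 4.3.3 (trend and robust settings, 1 coefficient per group, no covariate), with Benjamini-Hochberg adjustment over 14676 features per comparison, where the study used DEG-Seq. Calls needed an adjusted p under 0.05 together with a log2 fold change beyond 1.5 in either direction. On simulated data for CSA against CFA, 85.3% of tested genes changed 4-fold and 96.4% of those changed 8-fold were called, with 1 unchanged gene called in each. The simulation gave all groups the CFS mean with normal noise and changed 200 genes with a mean of at least 1 FPKM. It had no outlying mouse and fewer changed genes than were called here, so its rates need not hold for these data or for low genes. No libraries of the same group were repeats (closest pair 0.505 apart in root mean square log2 values), and pairs across groups were not measured. P-values measure the spread between mice. Motifs were searched in RefSeq windows. Figures were drawn with matplotlib 3.10.9 in Python 3.11.15, from tables made with numpy 2.4.6 and pandas 2.3.3.

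Every gene of the set, its partner ligands and chains, 3 genes of each other list with the largest change in CSA against CFA, and the 3 features most correlated with each gene are named. A gene selected by this rule is not reported here. The members, the 13 lists and the tests were chosen with earlier results of these data known. Alternatives were another pseudocount, 2 other filters, 2 other scalings, eBayes without trend or robust settings, a fit of only the groups compared, calls by adjusted p alone, and leaving out each mouse. Leaving out CFA mouse 72 and CSA mouse 03 together was chosen after seeing the data. In CSA against CFA it had to enlarge an upward change of any gene highest in the former and lowest in the latter.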

Additional observations from a re-analysis of the deposited data

Results flagged for a closer look

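For 6 genes the genotype difference under Ang II differed from that under saline by the interaction test (limma, Benjamini-Hochberg). The difference between both contrasts was 3.8 for Csf2rb, 3.75 for Csf3r, 2.8 for Flt3, 1.83 for Csf2ra, 1.7 for Csf1r and -1.74 for Kit on the log2 scale. All 3 CSA mice lay beyond all other mice in each of these genes. Flt3 entered the test through CSA alone, the group in which it was high, and so had to differ. The calls of Flt3 and Csf2ra were lost in 9 of 14 and 10 of 19 alternatives, and that of Kit with a pseudocount of 1. The interaction is built from the same CSA mice as the comparisons with CFA and CSS and is not independent of them.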

How the results depend on the processing

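The number of the 10 genes called ran from 4 to 7 in CSA against CFA, from 4 to 8 in CSA against CSS and from 4 to 6 for the interaction, and was 0 in both other comparisons under all alternatives. Differences that turned direction were small and not called. Leaving out 1 mouse gave -0.50 to 0.03 for Il34 and -0.05 to 0.25 for Csf3r in CSS against CFS, -0.56 to 0.22 for Il34 and -0.23 to 0.47 for Csf2rb in CFA against CFS, and -0.01 to 0.23 for Csf1 in CSA against CSS. Without CFA mouse 72 and CSA mouse 03 together, Il34 was at 0.22 and Csf2rb at -0.23 in CFA against CFS. The cause was not tested. With a pseudocount of 1 the calls of Flt3 in CSA against CFA (1.38), of Kit in CSA against CSS (-1.22) and of Flt3 (1.36) and Kit (-1.38) in the interaction fell under the fold limit, as a larger pseudocount shrinks low values. Filters decide which low genes are tested: Flt3 left the test when a CSA mouse was left out, and Csf2 and Csf3 entered with no filter and with scaling to library totals and were called in CSA against CFA, with fitted changes that depend on the pseudocount because CFA is at or near 0. That scaling moved the median of all features by 0.08 at most. Leaving out any CSA mouse lowered the markers called upward in CSA against CFA from 12 to 7 for neutrophils, from 8 to 1 for T and NK cells and from 1 to 0 for mast cells, since the genes lost had reached 1 FPKM in CSA alone and left the test. Over all alternatives the upward calls ran from 1 to 5 for dendritic cells, 4 to 13 for neutrophils, 1 to 10 for T and NK cells, 0 to 4 for fibroblasts and 0 to 1 for endothelium, whose downward calls ran from 1 to 3. Endothelium had 1 downward call without CFA mouse 71, CFA mouse 74 or CSA mouse 02, and no upward call without CFA mouse 74 or CSA mouse 03. No paired analysis was possible because the mouse numbers are not shared between groups. With 3 mice per group the exact permutation test cannot go below 0.1, and Csf2 and Csf3 rest on 40 and 60 fragments in CSA.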
